A study of Mus musculus with 20 samples.

Results

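The immunoglobulin heavy chain V genes were followed across single-cell RNA-sequencing (scRNA-seq) libraries of leukaemia-prone transgenic mice. The members were all features whose symbol starts with Ighv, 185 of the 31053 features in each count table, and they fell into 16 families. Their unique molecular identifiers (UMIs, tags that count captured RNA molecules) were read in 34057 B cells and 2783 plasma cells. A B cell held at least 3 UMIs of Cd79a and Cd79b, the signalling chains of the B-cell receptor, none of Cd3d, Cd3e and Cd3g, and fewer than 20 of Jchain. A plasma cell held at least 20 UMIs of Jchain, which joins secreted IgM and IgA, and at least 2 of Derl3 and Sdc1. Both kinds had at least 1500 UMIs with at most 10% from mitochondrial genes.

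A developing B cell joins 1 of many V segments to a D and a J segment, so that each cell and its descendants carry a particular rearranged heavy chain. B cells normally express a functional heavy chain from 1 allele, a restriction called allelic exclusion, and the rearranged chain is retained when the cell becomes a plasma cell. A population that has grown from few cells therefore shares its V genes, whereas a mixed population uses many. In mice the families Ighv11 and Ighv12 are known from B-1 cells, the lineage of innate-like B cells, and Ighv1 is the largest family.

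The 20 libraries came from 13 mice, whose strain the labels give as C57BL/6N, whereas the methods of the study place the Eµ-TCL1 mice of the cross on C57BL/6J. Spleens were taken from 5 mice with the Eµ-PRMT5 transgene, 4 with Eµ-TCL1 and 4 with both (Eµ-PRMT5/TCL1), and sub-mandibular lymph nodes from 3 Eµ-TCL1 mice and from 4 with both. Live cells were loaded without selection of a cell type. Eµ-PRMT5 mice carry human PRMT5, an arginine methyltransferase, and Eµ-TCL1 mice carry human TCL1, an oncogene of lymphoid leukaemias. Each transgene is driven in the B lineage by a heavy chain V promoter with the Eµ enhancer. Tissue was taken when mice met early removal criteria, the labels give no ages, and no wild-type library was among the samples analysed here. The title of Eµ-PRMT5 spleen 3 bears the number E4474, which the methods of the study give to a transgenic founder. The titles of Eµ-PRMT5/TCL1 spleen 1 and node 2, from 1 mouse, bear the mark RT, which no other title bears and the labels do not explain. Spleens are from different mice, and 7 mice gave both tissues, so a spleen and a node of 1 mouse are not independent and p-values rest on the spread between mice. Replicate numbers do not match between tissues: node 2 of the Eµ-PRMT5/TCL1 group, for example, is from the mouse of spleen 1.

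Library totals lay between 9348094 and 72440894 UMIs, and libraries held between 212 and 5533 B cells and between 1 and 669 plasma cells. Of B-cell markers that the gate did not use, Ms4a1 was seen in 50.2% to 95.9% of B cells per library and Ebf1 in 4.98% to 90.4%. Markers of other cells were not absent. Summed per list, 6 T-cell markers, of which the gate sets the 3 Cd3 genes to 0, gave 12.1 to 197 CPM (counts per 1e6 UMIs) of the B cells of a library, 4 monocyte and macrophage markers 58.3 to 409, 4 neutrophil markers 0 to 3727 and 3 erythroid markers 0 to 1749, against 2642 to 8486 for 8 B-cell markers, Cd79a and Cd79b of the gate included. Single markers differed: Lck was seen in 5.68% to 69.0% of B cells, Cd68 in 2.84% to 54.6% and S100a9 in 0% to 29.6%, but Lyz2 in at most 9.27% and Trac in at most 10.9%. The plasma-cell gate set no limit on Cd3 genes, and Cd3g was seen in a median of 18.4% of plasma cells per library, with 18.1 to 1885 CPM for the T-cell markers, 0 to 3626 for the neutrophil and 0 to 1338 for the erythroid markers. The 2 gated classes also shared markers. Plasma-cell markers, those of the gate included, gave 614 to 3191 CPM of B cells and 9894 to 47419 CPM of plasma cells. B-cell markers gave 1718 to 6359 CPM of plasma cells. Single members of these lists differed widely. Over the plasma-cell markers, the median share of B cells per library ran from 0.204% for Tnfrsf17 to 92.5% for Mzb1. Over the B-cell markers, the median share of plasma cells ran from 4.36% for Cd22 to 100% for Cd79a, with 62.3% for Ms4a1. Whether the gates part separate cell types was not tested, nor was the part of other cells or RNA in the results. Ighv genes made up 1153 to 11828 CPM of the B cells of a library, 12257 to 155311 CPM of the plasma cells, and 1.51 to 86.4 CPM of T cells (at least 2 UMIs of the Cd3 genes), which should lack them. No caller of doublets was run, and very deep barcodes were left out only as an alternative, whose values for cells with 2 V genes stand beside these. Over 190 pairs of libraries, between 0 and 30 cell barcodes were shared (median 2, at most 1.65% of the smaller library), and 78 of the 828 shared barcodes carried the same V gene.

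A cell was assigned to an Ighv gene when it held at least 2 Ighv UMIs and that gene held at least 80% of them. This gave 24733 assigned B cells. Cells rather than UMIs were counted because few cells with much immunoglobulin RNA can outweigh all others. In Eµ-PRMT5 spleen 1, 9 of 1869 B cells held at least 100 Ighv UMIs each and together 68.9% of all Ighv UMIs. In the same library Ighv5-6 took 40.7% of the UMIs but 1.94% of the assigned cells. In Eµ-PRMT5 spleen 2, Ighv8-12 took 23.3% of the UMIs from 1 assigned cell.

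The V segment lies far from the 3′ end that the kit captures, and reads were 75 bases long. The ends of the V segments that the results turn on are shown so that their differences can be seen. These are the last 110 bases of each annotated transcript, 5′ to 3′, from GENCODE vM21 on GRCm38. Capitals mark the codon pair for an aromatic residue and the conserved cysteine near the end of a V segment. The first is from the B-1 family Ighv12, the second from Ighv11, and the next 3 are Ighv1 genes that led in different mice. They are followed by the leading genes of Ighv5 and Ighv6, and by Ighv8-2, which has no capitals.
Ighv12-3: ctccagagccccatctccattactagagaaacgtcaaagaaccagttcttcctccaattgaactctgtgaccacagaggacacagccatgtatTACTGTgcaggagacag
Ighv11-2: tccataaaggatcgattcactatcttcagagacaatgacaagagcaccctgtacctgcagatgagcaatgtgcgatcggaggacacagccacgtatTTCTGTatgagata
Ighv1-55: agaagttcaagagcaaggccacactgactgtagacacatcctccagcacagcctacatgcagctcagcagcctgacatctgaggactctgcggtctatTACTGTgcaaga
Ighv1-9: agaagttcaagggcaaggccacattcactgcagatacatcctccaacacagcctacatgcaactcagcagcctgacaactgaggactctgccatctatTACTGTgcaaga
Ighv1-52: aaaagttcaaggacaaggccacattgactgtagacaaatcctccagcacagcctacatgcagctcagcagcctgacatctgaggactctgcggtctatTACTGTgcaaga
Ighv5-9-1: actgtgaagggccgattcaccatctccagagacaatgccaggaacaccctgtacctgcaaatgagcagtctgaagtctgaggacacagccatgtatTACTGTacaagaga
Ighv6-3: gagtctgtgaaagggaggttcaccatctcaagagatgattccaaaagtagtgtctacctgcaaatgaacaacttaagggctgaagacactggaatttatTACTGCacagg
Ighv6-6: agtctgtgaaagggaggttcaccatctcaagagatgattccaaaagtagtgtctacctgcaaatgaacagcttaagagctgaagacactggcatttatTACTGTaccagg
Ighv8-2: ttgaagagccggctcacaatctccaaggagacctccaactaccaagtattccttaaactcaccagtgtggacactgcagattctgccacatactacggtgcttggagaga

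All 185 features lie on chromosome 12 and 183 of them on the minus strand, over 2437167 bases from Ighv5-1 to Ighv1-86. Ighv12-3 lies at chr12:114366521-114366954, Ighv1-55 at chr12:115208095-115208591 and Ighv8-2 at chr12:114462291-114462730, all on the minus strand of GRCm38 and annotated as V gene segments. The searched motif was TAC, TAT, TTC or TTT followed by TGT or TGC, on the sense strand only, in the last 25 bases of the transcript. Of the 113 features annotated as V genes rather than pseudogenes, 7 of which have a stop codon in the frame of their first ATG, 108 (95.6%) held it, against 80.5% of all 185 and 58.6% of the 70 annotated pseudogenes. Ighv8-2 was 1 of the 5 that did not, and the only one of them to lead a library. Whether a read could be placed on 1 gene was gauged from windows of 75 bases found in no other Ighv feature. For genes that led a mouse the share of such windows ran from 52.3% (Ighv1-52) to 100% (median 100%). Among these genes, reads of Ighv1-52 are therefore the least certain. Over all Ighv features the share ran from 2.81% to 100% (median 99.3%), so reads of some other genes are less certain still.

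B cells used part of the locus, and few genes to a large share. Of the 185 features 122 had a UMI in B cells, 96 had an assigned B cell, 46 reached 1% of the assigned cells of some library and 13 reached 10%. The 113 features annotated as V genes took 99.8% of the Ighv UMIs and 24725 of the 24733 assigned cells. The 70 pseudogenes took 0.167% of UMIs and 8 cells, and the 2 remaining features had no UMI.

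**Figure D1:**
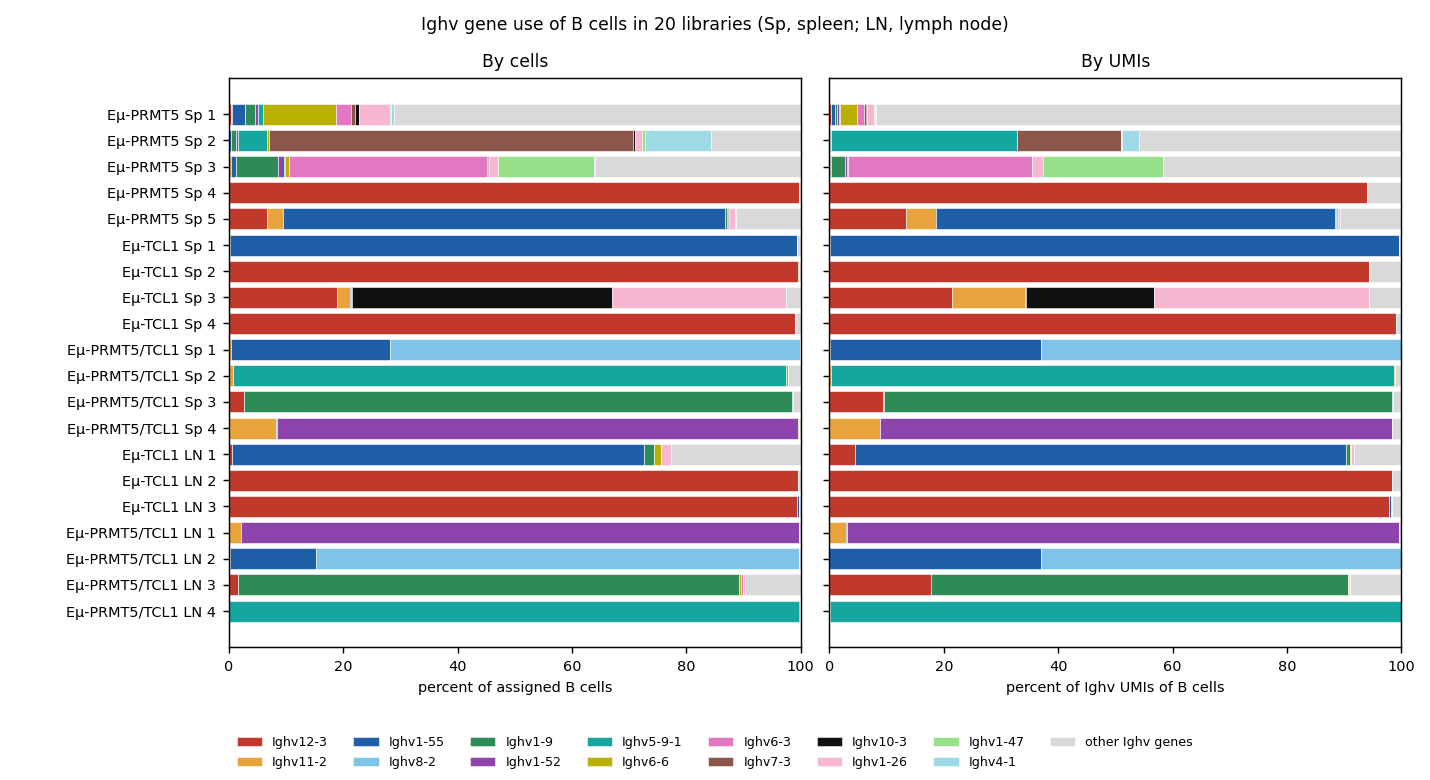
Ighv genes in assigned B cells of the 20 libraries. Each bar is a library, cut by colour into the percent of its assigned B cells (left) or of its B-cell Ighv UMIs (right) that each named gene holds, with all other genes in grey. In Eµ-PRMT5 spleen 1 no colour exceeds 12.8% of cells, and in 12 libraries 1 colour holds at least 87.7%.

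Different genes led in different Eµ-PRMT5 spleens. Ighv6-6 led spleen 1 with 12.8% of 1031 assigned cells, Ighv7-3 led spleen 2 with 63.6% of 242, and Ighv6-3 led spleen 3 with 34.7% of 1121. Ighv12-3 led spleen 4 with 99.6% of 853, and Ighv1-55 led spleen 5 with 77.3% of 432. These names follow the sample labels, and source data of the study leave a doubt whether the labels of spleens 4 and 5 are interchanged. Both are of the same group, so that no difference between groups depends on it. The 95% Wilson interval of these shares was widest in spleen 2, at 57.4% to 69.4%. Such intervals cover counting error only. The 5 spleens thus ranged from a mixture to nearly uniform use. Spleen 1 used 90 genes, equal to an effective number of 30.5 equally used genes (the inverse of the chance that a pair of cells shares a gene), and spleen 4 used 2 genes with an effective number of 1.01. Other genes above 10% of cells in this group were Ighv1-47 in spleen 3, at 16.8%, and Ighv4-1 in spleen 2, at 11.6%.

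In Eµ-TCL1 spleens, 3 of 4 were nearly uniform. Ighv1-55 held 99.2% of cells in spleen 1 (793 cells), and Ighv12-3 held 99.6% of 4877 in spleen 2 and 98.9% of 2529 in spleen 4. Spleen 3 was divided among Ighv10-3 with 45.6% of 1183 cells, Ighv1-26 with 30.4% and Ighv12-3 with 18.9%. No other Eµ-TCL1 spleen had a second gene above 10%. In the nodes of this group Ighv1-55 held 121 of 168 cells in node 1 (64.8% to 78.3%), and Ighv12-3 held 99.6% of 946 in node 2 and 99.4% of 2074 in node 3.

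By cells, each Eµ-PRMT5/TCL1 spleen was led by a gene that led no other mouse. By UMIs this did not hold for Ighv5-9-1, which also led Eµ-PRMT5 spleen 2 with 32.5% of UMIs. Ighv5-9-1 held 96.6% of 267 cells in spleen 2, Ighv1-9 held 95.7% of 1370 in spleen 3, and Ighv1-52 held 91.2% of 2516 in spleen 4. Ighv8-2 led spleen 1 with 71.7% and Ighv1-55 followed with 27.8%, but only 1404 of 5059 cells with at least 2 Ighv UMIs could be assigned there, and most of the others held both genes, as described with the cells of 2 V genes. The nodes showed the same leading genes. Ighv1-52 held 97.6% of 413 cells in node 1, Ighv8-2 held 84.4% of 880 in node 2, Ighv1-9 held 87.7% in node 3 (278 cells) and Ighv5-9-1 held 99.7% of 1311 in node 4.

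The share of the leading gene was compared over libraries, which are the replicates here, by exact permutation tests, all of them two-sided, on the means. It was 57.6% ± 34.4 (SD, n = 5) in Eµ-PRMT5 spleens, 85.8% ± 26.8 (SD, n = 4) in Eµ-TCL1 spleens and 88.8% ± 11.6 (SD, n = 4) in Eµ-PRMT5/TCL1 spleens. All 3 groups overlapped. Eµ-PRMT5 spleens were 28.2 points lower than Eµ-TCL1 spleens, since the coded difference was -28.2 (exact permutation p = 0.198, adjusted 0.595 over 15 tests). Spleens with both transgenes were higher than those with Eµ-PRMT5 alone by 31.2 points (exact permutation p = 0.167, adjusted 0.595) and than those with Eµ-TCL1 alone by 2.98 points (exact permutation p = 1, adjusted 1). In nodes the mean was 92.4% ± 7.43 (SD, n = 4) in Eµ-PRMT5/TCL1 and 90.3% ± 15.8 (SD, n = 3) in Eµ-TCL1 mice, a difference of 2.03 points (exact permutation p = 0.857, adjusted 0.961). None of these differences passed 0.05. The means with both transgenes include spleen 1 and node 2, where most cells held 2 V genes. Their leading shares rest on the 27.8% and 31.6% of cells with at least 2 Ighv UMIs that could be assigned. Without 1 library at a time, the difference of Eµ-PRMT5 from Eµ-TCL1 spleens ran from -41.6 to -17.0 points, and that of both transgenes from Eµ-PRMT5 alone from 19.99 to 41.7, the value nearest 0 being without Eµ-PRMT5 spleen 1 in both. The other 2 differences changed sign. That of both transgenes from Eµ-TCL1 in spleens was -10.4 without Eµ-TCL1 spleen 3 and -1.27 with at least 4 UMIs and 90% to assign a gene. That in nodes was -7.12 without Eµ-TCL1 node 1, -0.422 without Eµ-PRMT5/TCL1 node 4, -3.17 with the stricter assignment and -11.0 by share of UMIs. The smallest p within reach was 0.00794 with 5 and 4 libraries and 0.0286 with 4 and 4 or with 4 and 3.

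The largest family, Ighv1, has 93 features, of which 49 had an assigned B cell and 5 reached 10% of a library. It held 36.1% ± 32.9 of cells in Eµ-PRMT5 spleens (SD, n = 5; from 0% to 83.8%), 33.2% ± 46.6 in Eµ-TCL1 spleens (SD, n = 4; from 0.349% to 99.5%) and 54.2% ± 47.4 in Eµ-PRMT5/TCL1 spleens (SD, n = 4; from 0.749% to 96.6%). In nodes it held 29.8% ± 51.0 in Eµ-TCL1 mice (SD, n = 3) and 51.4% ± 51.0 in Eµ-PRMT5/TCL1 mice (SD, n = 4). In Eµ-PRMT5/TCL1 spleen 1 and node 2 most cells held Ighv1-55 together with Ighv8-2. Such cells were not assigned, so the Ighv1 share leaves them out. Every group of spleens held both a library under 1% and 1 over 83%, and no difference between groups passed (lowest exact permutation p = 0.532, adjusted 0.961).

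The smaller families were unevenly spread over mice. Ighv7, with 4 features, reached 63.6% in Eµ-PRMT5 spleen 2 through Ighv7-3 and at most 0.169% in the other groups. Ighv6, with 7 features, reached 35.2% in Eµ-PRMT5 spleen 3, mostly through Ighv6-3, 15.5% in Eµ-PRMT5 spleen 1, mostly through Ighv6-6, and at most 1.19% in the other groups. Ighv5, with 22 features, reached 96.6% and 99.8% in a spleen and a node of Eµ-PRMT5/TCL1 mice and at most 8.05% in Eµ-PRMT5 spleens. Ighv2, Ighv3, Ighv9 and Ighv14 were each highest in an Eµ-PRMT5 spleen, at 16.1%, 5.24%, 5.63% and 2.62%. None of their genes reached 10% of the assigned cells of a library, although Ighv2 and Ighv3 were each found in 11 libraries. Ighv16, with 1 feature, was the only family with no assigned B cell.

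Of the families known from B-1 cells, Ighv12 was high in some Eµ-PRMT5 and Eµ-TCL1 spleens and at most 2.63% in those with both transgenes, whereas Ighv11 was highest in 1 of the latter. Ighv12-3 was the only Ighv12 gene in assigned cells. It held 0.388%, 0%, 0%, 99.6% and 6.71% of cells in Eµ-PRMT5 spleens 1 to 5, and 0.125%, 99.6%, 18.9% and 98.9% in Eµ-TCL1 spleens 1 to 4. In Eµ-PRMT5/TCL1 spleens 1 to 4 it held 0%, 0%, 2.63% and 0%. The 0 values allow shares of up to 1.24% (3 cells of 242) in Eµ-PRMT5 spleen 2 and up to 1.12% (3 of 267) in Eµ-PRMT5/TCL1 spleen 2, the spleens with the fewest assigned B cells of these 2 groups. Ighv11-2 was found at low shares. It had an assigned cell in 13 of 20 libraries and 9 of 13 mice, in Eµ-TCL1 spleens 2 and 4 only 1 cell each. Of its 277 assigned cells, 209 were in Eµ-PRMT5/TCL1 spleen 4, where its share was highest, at 8.31%. Its next shares were 2.78% in Eµ-PRMT5 spleen 5 and 2.28% in Eµ-TCL1 spleen 3.

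Summed, Ighv11 and Ighv12 held 22.1% ± 43.6 of cells in Eµ-PRMT5 spleens (SD, n = 5), 54.98% ± 51.9 in Eµ-TCL1 spleens (SD, n = 4) and 3.01% ± 3.67 in Eµ-PRMT5/TCL1 spleens (SD, n = 4). The mean with both transgenes less that with Eµ-TCL1 alone was -51.97 points (exact permutation p = 0.143, adjusted 0.595). The groups overlapped, because Eµ-TCL1 spleen 1 was at 0.125%. Without that library the difference was -70.3 points and the groups did not overlap; no p is given, since it was the library that made them overlap. In nodes the coded difference was -65.5 points (exact permutation p = 0.0857, adjusted 0.595), from 1.02% ± 1.03 (SD, n = 4) in Eµ-PRMT5/TCL1 and 66.5% ± 57.1 (SD, n = 3) in Eµ-TCL1 mice. Without 1 node at a time it ran from -98.5 (without Eµ-TCL1 node 1) to -48.99 points. All 7 nodes are from mice already counted by their spleens.

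Recurrence was limited. No gene was found in assigned B cells of 10 or more of the 13 mice, and 3 genes (Ighv1-55, Ighv11-2 and Ighv3-6) were found in 9. In this count 1 assigned cell was enough. Ighv3-6, which lies outside the rule for named genes and was singled out after its values were seen, did not exceed 4.27% of any library. Of the 13 genes that reached 10% in a library, 11 did so in 1 mouse. Ighv12-3 did so in 4 mice and led 3 of them, and Ighv1-55 did so in 3 mice and led 2. In the mouse with Ighv1-55 that it did not lead, most cells held Ighv1-55 together with Ighv8-2 and were not assigned.

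**Figure D2:**
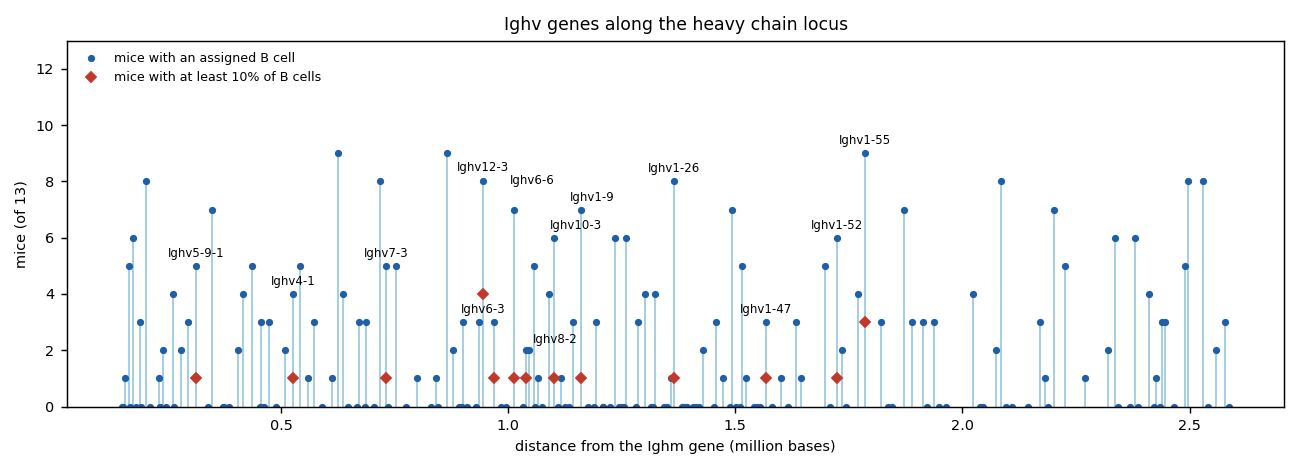
Ighv genes by distance from Ighm, on an axis in Mb, with the number of mice (of 13) that had an assigned B cell of the gene (blue points) or at least 10% of assigned B cells in a library (red diamonds). Ighv12-3 stands at 4 mice and Ighv1-55 at 3, and the other diamonds stand at 1.

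The light chains showed whether shared heavy chain genes came with the same partner. A light chain V gene was assigned to a cell by the same rule. In Ighv1-55 cells Igkv12-89 was the partner in 3 mice, 1 of each genotype. It was found in 331 of 334 cells with a light chain in Eµ-PRMT5 spleen 5, in 793 of 793 in Eµ-TCL1 spleen 1 and in 374 of 374 in Eµ-PRMT5/TCL1 spleen 1. The 3 spleens shared 1, 2 and 13 cell barcodes pairwise, where 0.930, 3.61 and 10.2 would be expected of draws from all barcodes. None of the shared barcodes carried the same V gene. Most cells of Eµ-PRMT5/TCL1 spleen 1 were not assigned to a gene, so little can be read from that. In Eµ-PRMT5 spleen 1, where Ighv1-55 held 23 cells, the leading light chain was seen in 2 of 13.

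Ighv12-3 also had a leading partner in 3 mice, Igkv4-91, with others in 2 more. In Eµ-PRMT5 spleen 4 it was Igkv3-7 in 844 of 844 cells. In Eµ-TCL1 spleen 3 Igkv4-72 led with 11 of 20, and in Eµ-PRMT5 spleen 5 Igkv4-91 was found in 21 of 21. In the uniform Eµ-TCL1 spleens few Ighv12-3 cells had an assigned light chain: 223 of 4857 in spleen 2, of which 94.2% had Igkv4-91, and 300 of 2502 in spleen 4. The latter were divided between Igkv4-91 with 53.7% and Igkv17-127 with 46.3%, and node 3 of that mouse was divided alike, with 51.2% and 48.5% of 445 cells. Of the light chain UMIs of all Ighv12-3 B cells, Igkv4-91 held 59.95% in spleen 4 and 67.2% in node 3. A cell that holds both light chains in similar amounts is not assigned by the rule, so this division covers assigned cells only. Whether the unassigned cells held both was not tested. In plasma cells with Ighv12-3 of the same mouse Igkv4-91 was found in 35 of 35 in spleen and 373 of 373 in node. Its share of the light chain UMIs of these plasma cells was 89.1% in spleen and 89.5% in node.

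Uniform partners were common but not the rule. Over the 38 sets of a gene and a library with at least 20 B cells with a light chain, the leading light chain held 8.57% to 100% of these cells (median 99.8%), and in 24 sets at least 95%. Ighv11-2 went with Igkv14-126 in 27 of 27 cells of Eµ-TCL1 spleen 3 and 181 of 181 of Eµ-PRMT5/TCL1 spleen 4. Ighv6-6 of Eµ-PRMT5 spleen 1 and Ighv6-3 of Eµ-PRMT5 spleen 3 both went with Igkv3-2, in 63 of 68 and 361 of 367 cells. Ighv1-9 went with Iglv1 in 1206 of 1208 cells of Eµ-PRMT5/TCL1 spleen 3 but with Igkv19-93 in 71 of 79 of Eµ-PRMT5 spleen 3. Heavy chain constant regions of the leading genes were mostly Ighm, the gene of IgM, with 98.4% of constant region UMIs in Ighv12-3 cells of Eµ-PRMT5 spleen 4. The share was lowest, at 60.5%, in Ighv6-6 B cells of Eµ-PRMT5 spleen 1, where Ighg2b gave 21.9%. In the Ighv5-6 cells of Eµ-PRMT5 spleen 1, Ighg2b gave 93.2% of these UMIs but led in only 7 of the 20 cells, and 4 cells held 97.2% of the Ighv5-6 UMIs of that library.

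The 7 mice with both tissues were used to ask whether V gene use matched between them. Overlap is the sum over genes of the smaller of the shares in the 2 tissues. Within a mouse it ran from 72.5% to 99.8% (median 93.4%, n = 7), and between a spleen and a node of different mice from 0% to 99.4% (median 0.227%, n = 42 pairs). Of the 42, 2 shared the leading gene, both between the Eµ-TCL1 mice led by Ighv12-3. The lowest overlap within a mouse was therefore under the highest between mice.

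**Figure D3:**
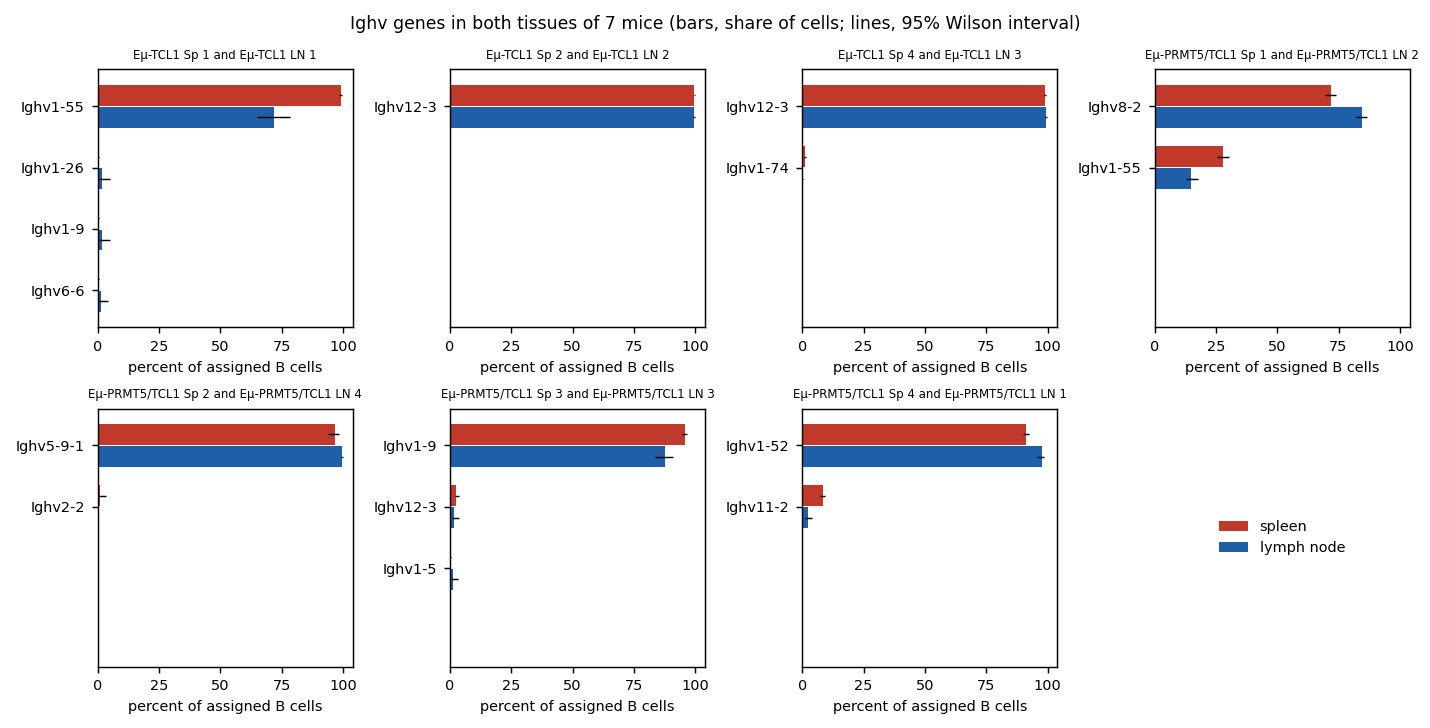
Leading and further Ighv genes of at least 1% in a tissue, in the 7 mice with a spleen and a lymph node, as percent of assigned B cells, with red bars for spleen, blue bars for node and lines for 95% Wilson intervals; at most 4 genes are drawn for a mouse. The leading gene coincides in each mouse, and the tissues differ most for Ighv1-55 of the first, at 99.2% in spleen and 72.02% in node.

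The size of the leading share did not move in a common direction. The node was lower than the spleen by 27.2 points for Ighv1-55 in Eµ-TCL1 spleen 1, since the coded change was -27.2, and that for Ighv1-9 was -7.996 points. It was higher by 12.7 points for Ighv8-2 among the assigned cells, which leave out most cells of that mouse, whereas by UMIs Ighv8-2 held 63.1% in spleen and 62.96% in node. It was also higher by 6.36 for Ighv1-52, by 3.07 for Ighv5-9-1 and by 0.441 for Ighv12-3 in Eµ-TCL1 spleen 4. For the remaining mouse, with Ighv12-3, the change was -0.0127 points. The mean change was -1.81 points ± 12.9 (SD of the differences, n = 7; exact sign-flip permutation p = 0.797, adjusted 0.961). It was -4.23 without the mouse of Ighv8-2 and 2.43 without the mouse of Eµ-TCL1 spleen 1. In the chance that a pair of cells shares a gene, the mean change was -4.10 points ± 20.995 (SD of the differences, n = 7; exact sign-flip permutation p = 0.766, adjusted 0.961). Without 1 mouse at a time this mean ran from -7.18 to 2.98 points, the latter without the mouse of Eµ-TCL1 spleen 1. The smallest p that 7 pairs allow is 0.0156.

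Some minor genes also recurred in both tissues of a mouse, but others of at least 1% in 1 tissue were not seen in the other. Ighv2-2, for example, held 3 of 267 spleen cells and 0 of 1311 node cells in the mouse led by Ighv5-9-1. Ighv11-2 held 8.31% of spleen and 2.18% of node cells in the mouse led by Ighv1-52. Ighv12-3 held 2.63% and 1.58% in the mouse led by Ighv1-9. Their Wilson intervals overlapped for Ighv12-3 and not for Ighv11-2. The node of the mouse led by Ighv1-55 held 32 genes in 168 assigned cells, and the spleen 7 genes, although it had more cells.

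Plasma cells were compared with B cells in the 12 libraries with at least 20 assigned plasma cells. The leading gene was the same in 8 and differed in 4. Those 4 are spleens of mice that gave no node, so they do not contrast the tissues. The 8 count the mice of Eµ-TCL1 spleens 1 and 4 with both tissues. Ighv1-59 led plasma cells of Eµ-PRMT5 spleen 1 with 26.9% of 52 cells and held 1.75% of its B cells, which Ighv6-6 led. In Eµ-PRMT5 spleen 2, Ighv4-1 held 90% of 20 plasma cells and 11.6% of B cells, and Ighv7-3, the leading gene of B cells, held 0% of plasma cells, which allows up to 15% (3 of 20). In Eµ-PRMT5 spleen 3, Ighv1-47 held 52.5% of 61 plasma cells against 16.8% of B cells. In Eµ-TCL1 spleen 3, Ighv1-26 held 69.0% of 29 plasma cells against 30.4% of B cells. In each of these 4 spleens the gene that led the B cells held a smaller share of plasma cells than of B cells. This is largely set by picking libraries whose leading genes differ. In Eµ-PRMT5 spleen 1 the plasma-cell interval of Ighv6-6, 1.06% to 12.98%, included its B-cell share of 12.8%.

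**Figure D4:**
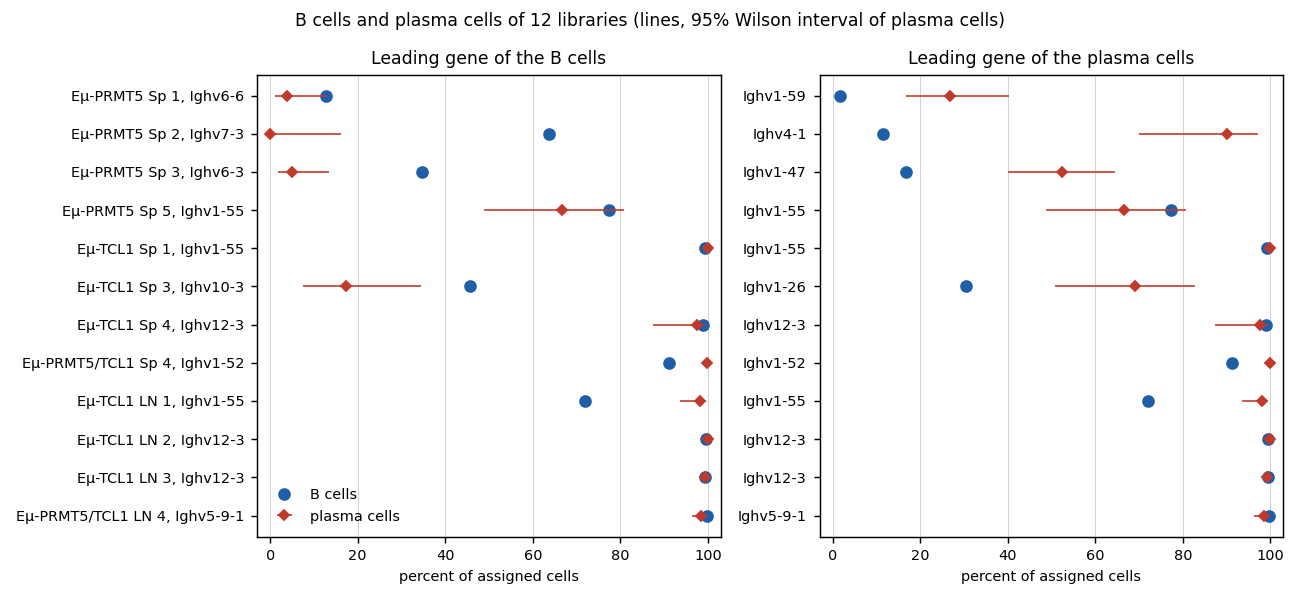
Percent of assigned B cells (blue) and plasma cells (red, with 95% Wilson interval) that held the leading gene of the B cells (left) and of the plasma cells (right), in the 12 libraries with at least 20 assigned plasma cells. In the 8 libraries with the same leader both shares are at least 66.7%, and in the other 4 the leading gene of plasma cells is not that of B cells.

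In the other 8 libraries with at least 20 assigned plasma cells these were led by the gene of the B cells. Ighv1-55 held 100% of 486 plasma cells in Eµ-TCL1 spleen 1 and 98.2% of 109 in node 1 of the same mouse, whose B cells held it at 72.02%. Ighv12-3 held 97.6% of 41 in Eµ-TCL1 spleen 4, 99.3% of 414 in node 3 and 100% in node 2. Ighv1-52 held 99.9% of 668 in Eµ-PRMT5/TCL1 spleen 4, and Ighv5-9-1 held 98.5% of 271 in Eµ-PRMT5/TCL1 node 4. Below that limit, the 7 assigned plasma cells of Eµ-PRMT5/TCL1 spleen 3 were led by Ighv12-3 with 57.1%, while Ighv1-9 held 95.7% of its B cells. The other libraries below it had the same leader in both classes. That gene held 8 of 9 plasma cells in Eµ-PRMT5 spleen 4, for example, and 4 of 10 in Eµ-PRMT5/TCL1 node 3. In Eµ-PRMT5 spleen 5, Ighv1-55 held 66.7% of 30 plasma cells against 77.3% of B cells, and Ighv12-3 held 26.7% against 6.71% and gave the most Ighv UMIs of the plasma cells, at 45.8%. In Eµ-PRMT5/TCL1 spleen 4, Ighv11-2 held 209 of 2516 B cells and 0 of 668 plasma cells, which allows a share of up to 0.449% (3 of 668).

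The chance that a pair of cells shares a gene was higher in plasma cells than in B cells in 6 of the 8 spleens compared, by a mean of 9.78 points ± 15.03 (SD of the differences, n = 8; exact sign-flip permutation p = 0.0859, adjusted 0.595). It did not pass 0.05, and the smallest p that 8 pairs allow is 0.00781. In Eµ-PRMT5 spleen 5 and Eµ-TCL1 spleen 4 the difference was -10.2 and -2.76 points. Without 1 spleen at a time the mean ran from 5.67 points (without Eµ-PRMT5 spleen 2) to 12.6 (without Eµ-PRMT5 spleen 5), and the unadjusted exact sign-flip permutation p from 0.0469 to 0.172.

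Cells with 2 V genes were the majority in both tissues of 1 mouse. A cell counted as holding 2 genes when the second had at least 2 UMIs and more than 20% of the Ighv UMIs. In Eµ-PRMT5/TCL1 spleen 1 this was so in 68.6% of 5059 B cells with at least 2 Ighv UMIs, and in node 2 of the same mouse in 64.0% of 2784. Nearly all held Ighv8-2 with Ighv1-55: 3471 of 3473 in spleen and 1780 of 1783 in node. In the other Eµ-PRMT5/TCL1 spleens and nodes the share of such cells was at most 1.52% and 0.621%. Without cells over 2.5 times the median UMIs of the library, an alternative for this share chosen after the data were seen, it was 68.0% of 4798 cells in spleen 1 and 63.4% of 2665 in node 2. Next after this mouse came Eµ-PRMT5 spleen 3 with 19.7%, Eµ-PRMT5 spleen 1 with 10.9% and Eµ-TCL1 spleen 2 with 7.46%. Without the deep cells these were 275 of 1447 cells, 10.5% and 7.62%.

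Ighv8-2 and Ighv1-55 were seen together more often in cells with more UMIs of the 2 genes. A cut on these same UMIs by itself raises the chance of seeing both. Of spleen B cells with a UMI of either, 4471 of 5152 (86.8%) held both. Of B cells with at least 20 UMIs of the 2 genes, 98.5% of 1883 in spleen and 98.4% of 1071 in node held both. Plasma cells held both in 183 of 183 in spleen and 140 of 142 in node. Ighv1-55 took 36.9% of the UMIs of the pair in B cells of the spleen and 37.0% in those of the node. In plasma cells it took 37.6% in spleen and 39.8% in node. The ratio was thus similar in both tissues and both cell kinds, although plasma cells held a median of 860 Ighv UMIs in spleen against 15 in B cells. Igkv12-89 was the light chain of all 3817 spleen cells with both genes and a light chain, of 971 of 971 Ighv8-2 cells and of 374 of 374 Ighv1-55 cells.

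**Figure D5:**
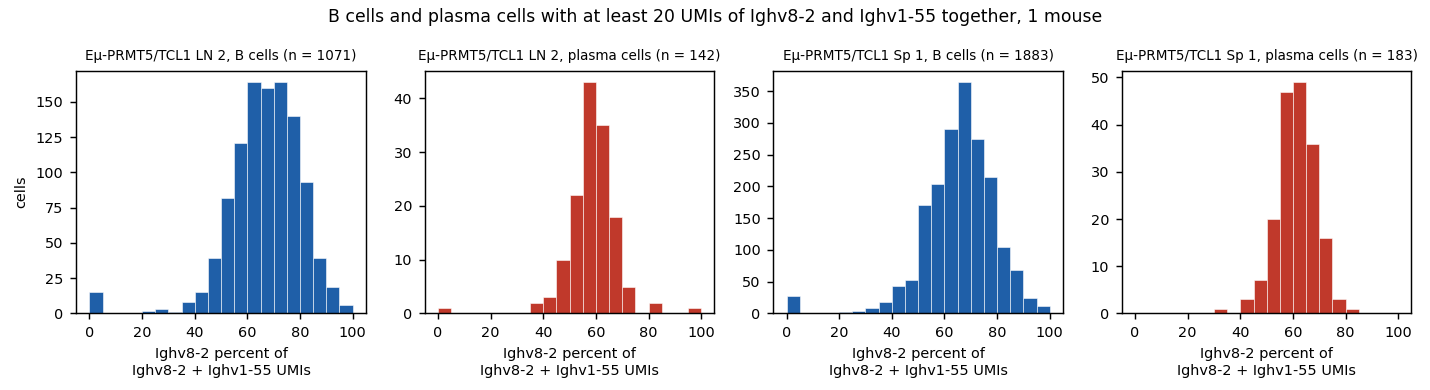
B cells and plasma cells with at least 20 UMIs of Ighv8-2 and Ighv1-55 together, by the percent of these UMIs that came from Ighv8-2 (horizontal, bins of 5%), in the node and spleen of 1 mouse. Vertical axes are numbers of cells; each panel has 1 main peak above 50%, and the bar at 0% includes the 15 node and 26 spleen B cells without Ighv8-2.

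The 2 genes are 745804 bases apart with 66 features between them, and share no window of 75 bases. With their last 110 bases set against each other without gaps, in the register of up to 12 bases of shift that gave the most identity, 56.2% of positions were identical. A small set stood outside this pattern: 26 of the 1883 spleen cells and 15 of the 1071 node cells held at least 20 UMIs of Ighv1-55 and none of Ighv8-2. All 25 and 14 of them with a light chain had Igkv12-89. Their median depth was 10187 UMIs in spleen and 8082 in node, against 8149 and 7068 for all cells with at least 20 UMIs of the pair.

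Other second genes were found with a leading gene. The 4 second genes below lie outside the rule for named genes and were chosen after their values were seen. In the mouse led by Ighv12-3 with spleen 2 and node 2 of Eµ-TCL1, Ighv1-49 was found in 2828 of 5322 spleen cells and 610 of 994 node cells with at least 2 UMIs of Ighv12-3. Of cells with at least 2 UMIs of Ighv1-49, 1410 of 1418 in spleen and 375 of 378 in node held Ighv12-3, but so did 5424 of all 5533 B cells of the spleen and 1002 of 1009 of the node. Ighv1-49 gave 5.51% of the UMIs of the pair in spleen and 1.56% in node, and all other libraries together held 32 UMIs of it in B cells. In plasma cells of the node it was found in 88.6% of those with Ighv12-3, but gave only 0.415% of the UMIs of the pair. These plasma cells held a median of 926 Ighv UMIs, against 23 in B cells of the node.

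In Eµ-PRMT5 spleen 3, Ighv3-2, an annotated pseudogene, was found in 503 of 660 cells with at least 2 UMIs of Ighv6-3, and 360 of 366 cells with Ighv3-2 held Ighv6-3, against 40.6% of all B cells there. Ighv3-2 has a stop at codon 101 counted from the first ATG of the annotated transcript. Whether that is the reading frame of the V segment was not tested. In the same library Ighv15-2 was found in 136 of 273 cells with at least 2 UMIs of Ighv1-47 and in 32 of 32 plasma cells of that kind. Ighv15-2 gave 3.95% of the UMIs of this pair in B cells and 0.909% in plasma cells. The annotated transcript of Ighv1-67 has a stop at codon 6, counted from its first ATG. In Eµ-PRMT5/TCL1 spleen 4, Ighv1-67 was found in 125 of 2353 Ighv1-52 cells. Of cells with Ighv1-67, 96 of 96 held Ighv1-52, as did 93.0% of all B cells of that spleen. Ighv1-67 was found in 94 of 668 plasma cells of that spleen and in 0 of 405 Ighv1-52 B cells of the node of the same mouse. Ighv1-67 gave 1.35% of the UMIs of its pair in B cells of the spleen and 0.846% in plasma cells. These pairs shared no window of 75 bases. By the same ungapped comparison of transcript ends, Ighv1-52 and Ighv1-67 were identical at 90.9% of positions, Ighv1-47 and Ighv15-2 at 76.4%, Ighv6-3 and Ighv3-2 at 58.9%, and Ighv12-3 and Ighv1-49 at 55.2%. The ends of the second genes of the Ighv12-3 and Ighv6-3 cells are shown for comparison with those of their partners above; capitals mark the same motif.
Ighv1-49: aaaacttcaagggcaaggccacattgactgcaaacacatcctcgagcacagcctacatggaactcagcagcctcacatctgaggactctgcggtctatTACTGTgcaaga
Ighv3-2: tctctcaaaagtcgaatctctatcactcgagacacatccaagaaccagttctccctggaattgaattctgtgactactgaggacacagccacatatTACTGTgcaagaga

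UMIs of each B-cell population were also summed per library and tested over all genes with edgeR's quasi-likelihood test and Benjamini-Hochberg adjustment. Few Ighv genes passed the filter on low counts, 30 of 185 in the spleens, 5 in the nodes and 1 in the paired tissues, and a gene used by 1 mouse can pass it only through the group of that mouse. No Ighv gene was called in any comparison. Of all genes tested, 0.0257% were called in Eµ-PRMT5 against Eµ-TCL1 spleens. With both transgenes against Eµ-TCL1 alone it was 0.00857%, and against Eµ-PRMT5 alone 0%. It was 0% between the 2 groups of nodes and 0.00907% between node and spleen. At an unadjusted p under 0.05 the edgeR counts of Ighv genes were 18, 9, 17, 2 and 1 in that order, where 16.9%, 4.59%, 9%, 6.75% and 11.2% of all genes tested were under that limit. DESeq2 called 7, 0, 3, 0 and 0 Ighv genes, and 5.53%, 0.191%, 1.02%, 0.543% and 2.6% of all genes. With no filter on low counts edgeR called 4 Ighv genes between node and spleen, and 0.504% of all genes. In the first comparison edgeR called 8 Ighv genes and 2.77% of all genes without Eµ-PRMT5 spleen 4. It called 1 and 0.0256% without spleen 3, and 1 and 0.571% without spleen 5. Since the filter kept Ighv genes through the group where they were high, nothing is read from these counts about the members.

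The genes that act on the heavy chain locus or its product did not pass either. A list of 24, among them Pax5 and Ebf1, which set B-cell identity, had 22 members tested in spleens, 19 in nodes and 20 in the paired tissues. Rag1 and Rag2, which cut the V segments, had too few counts to be tested in any of them. None of those tested was called by edgeR in these 5 comparisons, and 6, 1, 4, 3 and 3 had an unadjusted p under 0.05, to be read against the shares of all genes under that limit given above. The median log2 difference of the list was -0.43, -0.10, 0.25, -0.12 and -0.01 in that order, against 0.04, 0.00, -0.06, 0.02 and 0.02 for all genes tested. In the spleens with enough cells of both kinds, cells of the leading V gene were compared with the other assigned B cells of the same library, a comparison chosen after the data were seen. Eµ-PRMT5/TCL1 spleen 1 was left out by choice, although it had enough cells of both kinds. Of the list 17 were tested and none was called, against 0.0894% of all genes, and 2 had an unadjusted p under 0.05, against 5.75% of all genes. The median log2 difference of the list was -0.13. Ighd, the gene of the IgD constant region, had a log2 difference of -0.79 ± 0.20 (SE; edgeR adjusted p = 0.384), which did not pass. Its CPM was lower in leading-gene cells in all of these spleens but 1 and was higher in Eµ-PRMT5 spleen 3, at 226 against 175. The other assigned cells numbered only 20 in Eµ-TCL1 spleen 2 and 27 in Eµ-TCL1 spleen 4, so their CPM rests on few cells. The leading-gene cells held more UMIs per cell in 7 of the compared spleens and fewer in Eµ-PRMT5 spleens 1 and 3. The part of depth in the Ighd difference was not tested.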

How the data were processed

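Single-cell RNA-seq (10x Genomics 3′ kit) of 20 mouse libraries was analysed. The authors counted UMIs per gene and barcode, and the deposited tables hold these raw counts for all barcodes. The submitters' processing notes name Cell Ranger 2.0.1 and Seurat 2.2.1, the matrix headers name Cell Ranger 3.1.0, and the build is GRCm38. Library totals were 9348094 to 72440894 UMIs. No column of the tables was left unused.

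Cells were selected by the marker rules given in the report, without clustering, and their Ighv UMIs were summed per library. Groups and replicates come from the sample descriptions. Members and gene lists were chosen with earlier results of these data known. An Ighv gene was named if it led the B cells of a library by cells or UMIs, led the plasma cells of a library with at least 20, or held at least 10% of the cells or UMIs of a library. The 5 lowest p-values among genes called by edgeR were also to be named, but edgeR called none in the main comparisons. Shares were compared over libraries by exact permutation tests (15 tests, Benjamini-Hochberg), and spleen and node of a mouse as pairs. Summed counts were tested with edgeR 4.0.16 (quasi-likelihood, with the mouse as block between tissues) in R 4.3.3, with DESeq2 1.42.0 as alternative. The edgeR script was tested on simulated data. Replicate numbers were checked for pairing between genotypes: deviations of same-numbered spleens correlated at -0.124 to 0.169 (12 pairs), so they were not used as blocks. Further alternatives changed the depth, mitochondrial and Jchain limits, dropped cells over 2.5 times the median UMIs, required 4 UMIs and 90% to assign a gene, weighted by UMIs with and without the rate in T cells, dropped the filter on low counts and left out each library. Python 3.11.15 with numpy 2.4.6, pandas 2.3.3, scipy 1.17.1 and matplotlib 3.10.9 was used. Intervals and limits of 0 counts cover counting error only.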

Additional observations from a re-analysis of the deposited data

Results flagged for a closer look

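A library stood apart from the others of its group in 6 of 24 checked sets of 4 or 5 libraries, judged by its gap to the nearest library over the range of the group, with Dixon's 95% critical value as the limit. At that limit chance alone marks about 1 in 20 sets, if these are independent, and several of the sets here share libraries or mice. Eµ-TCL1 spleen 3 had a leading V gene share of 45.6%, against 98.9% to 99.6% in the other 3 spleens, and a chance of 33.6% that a pair of B cells shares a V gene, against 97.9% to 99.2%. Eµ-PRMT5 spleen 4 had 99.6% of its assigned B cells in Ighv11 and Ighv12, against 0% to 9.49% in the other 4. In the mouse of Eµ-PRMT5/TCL1 spleen 1 and node 2, 68.6% of spleen B cells and 64.0% of node B cells held 2 V genes, against at most 1.52% and 0.621% in the other libraries of each group. The same node had 6138 Ighv CPM in B cells, against 1153 to 1845 in the other 3 nodes. The causes were not tested.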

How the results depend on the processing

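Of 305 alternatives over 25 results, 134 that kept all libraries and 147 that left out 1 library gave the direction and side of the threshold (or a count) as reported. Among them, leaving out cells over 2.5 times the median UMIs kept every direction and call of the 15 exact tests. With 4 UMIs and 90% to assign a gene, the difference in leading share turned to -1.27 points (both transgenes less Eµ-TCL1, spleens), to -3.17 (nodes) and to 0.162 (node less spleen). By share of UMIs the nodes gave -11.0 points, with or without the T-cell rate, and the Ighv1 share (Eµ-PRMT5 less Eµ-TCL1 spleens) gave -11.8 both ways. These differences did not pass a test in either form. DESeq2 called 7 Ighv genes (5.53% of all genes) in Eµ-PRMT5 against Eµ-TCL1 spleens and 3 (1.02%) in both transgenes against Eµ-PRMT5, and without a filter on low counts edgeR called 4 between tissues (0.504% of all genes), with more genes tested. The causes were not tested.

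Without 1 library at a time, the leading share ranged from -41.6 to -17.0 points for Eµ-PRMT5 less Eµ-TCL1 spleens, from 19.99 to 41.7 for both transgenes less Eµ-PRMT5 spleens, from -10.4 (without Eµ-TCL1 spleen 3) to 8.68 points for both transgenes less Eµ-TCL1 in spleens, from -7.12 (without Eµ-TCL1 node 1; -0.422 without Eµ-PRMT5/TCL1 node 4) to 6.65 in nodes, and from -4.23 to 2.43 (without the mouse of Eµ-TCL1 spleen 1) for node less spleen. The chance of a shared V gene ranged from -7.18 to 2.98 (same mouse) for node less spleen and from 5.67 (without Eµ-PRMT5 spleen 2) to 12.6 (without Eµ-PRMT5 spleen 5), with exact permutation p from 0.0469 to 0.172, for plasma less B cells. The Ighv1 share of Eµ-PRMT5 less Eµ-TCL1 spleens ranged from -8.96 (without Eµ-PRMT5 spleen 5; -7.995 and -7.77 without Eµ-TCL1 spleens 2 and 4) to 25.1, that of both transgenes from 6.86 to 43.1 less Eµ-TCL1 spleens, from 3.90 to 35.9 less Eµ-PRMT5 spleens and from 6.10 to 50.9 in nodes. The Ighv11 and Ighv12 share ranged from -70.3 (without Eµ-TCL1 spleen 1, the library that made the groups overlap) to -37.1 for both transgenes less Eµ-TCL1 spleens and from -24.6 to 0.358 (without Eµ-PRMT5 spleen 4) less Eµ-PRMT5 spleens, from -52.3 to -18.1 for Eµ-PRMT5 less Eµ-TCL1 spleens and from -98.5 (without Eµ-TCL1 node 1) to -48.99 in nodes. Calls of Ighv genes ranged from 0 to 8 in Eµ-PRMT5 against Eµ-TCL1 spleens (8 without Eµ-PRMT5 spleen 4, 1 without spleen 3 or 5) and stayed at 0 in the other comparisons.

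With the replicate number as a block, edgeR called 0 Ighv genes in each of the 4 genotype comparisons; same-numbered nodes correlated at -0.113 to 0.192, so the numbers name libraries and do not pair them. Without the pairing of tissues by mouse, edgeR called 0 and the exact permutation p was 0.736 for the leading share and 0.628 for the chance of a shared gene. The smallest library had 168 assigned B cells, which sets the widest intervals among the nodes.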

Other observations

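Few cells can carry a library's Ighv UMIs. B cells with at least 100 Ighv UMIs were 9 of 284 in Eµ-PRMT5 spleen 2 and held 76.9% of its Ighv UMIs, and 14 of 1746 in Eµ-PRMT5 spleen 3 with 58.3%. In Eµ-PRMT5 spleen 2, Ighv5-9-1 held 32.5% of UMIs and 4.96% of assigned cells. Ighv2-2 held 16.1% of the UMIs of Eµ-PRMT5 spleen 1, of which 91.4% were in 1 cell.

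In T cells of Eµ-PRMT5 spleens 1, 3 and 5 the gene with the most Ighv UMIs led neither the B cells nor the plasma cells by cells. It was Ighv5-6 in spleen 1, which led the B cells there by UMIs. In spleen 3 it was Ighv2-6, which led the plasma cells by UMIs. In spleen 5 Ighv9-3 (chosen after its values were seen) gave 200 of 366 Ighv UMIs in T cells, and 21 of 4579 T cells held at least 2 UMIs of it. Ighv9-3 held 2.31% of assigned B cells in that library. The doubt about the labels of Eµ-PRMT5 spleens 4 and 5 applies to these values too, and the cause was not tested.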
